A study of Mus musculus with 6 samples.

Results

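The bins described here are the 50 kb bins of the mouse autosomes that were assigned to subcompartment A.1.1, the most active class of chromatin, in both control Hi-C libraries of E14 cells. There were 5822 of them among the 47717 bins with a subcompartment label in all 6 libraries (12.2%), and together they span 291.1 Mb. They are called shared A.1.1 bins below. Because the 2 control libraries chose them, the controls are at A.1.1 in every one by construction, and a knockdown library can only match or lie below them.

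Hi-C records which pieces of the genome lie close together in the nucleus. The cells were E14 mouse embryonic stem cells, a male wild-type line grown in serum with leukemia inhibitory factor. The Brg1KD group received esiRNA against Smarca4, the gene of Brg1. The Ino80KD group received esiRNA against Ino80, and the Control group received esiRNA against EGFP, a fluorescent protein gene foreign to mice. An esiRNA is an enzymatically cut pool of short interfering RNAs, introduced here by transient lipid transfection and followed by harvest after 48 h. Each group had 2 libraries, replicate 1 from batch 1 and replicate 2 from batch 2. The labels do not say whether the replicates were separate cultures, so the spread between them may be technical. Hi-C measures no transcripts, so neither the depth of the knockdown nor the identity of the cells could be checked from these data. A label is also an average over the cells of a library, so a partial shift in all cells and a full shift in some cannot be told apart.

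Chromosomes are segregated into an A compartment, which is gene-rich, transcribed and early replicating, and a B compartment, which is gene-poor and often attached to the nuclear lamina. Finer clustering of contacts divides both into subcompartments. Brg1 is the ATPase of esBAF, the form of the BAF remodelling complex found in embryonic stem cells, which evicts or slides nucleosomes and opens enhancers. Ino80 is the ATPase of the INO80 complex, which positions nucleosomes at promoters and exchanges histone variants. Both have been linked to the maintenance of pluripotency.

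In the deposited files the 8 subcompartments form a ladder from A.1.1 at the top through A.1.2, A.2.1, A.2.2, B.1.1, B.1.2 and B.2.1 down to B.2.2. A step of this ladder is called 1 class. Of all bins, A.1.1 took 13.4% and 15.2% in the Brg1KD libraries, 13.9% and 15.1% in the Ino80KD libraries and 13.4% and 15.0% in the Control libraries (replicates 1 and 2 in each case). The A.1.1 share was thus higher in all 3 batch 2 libraries than in all 3 batch 1 libraries, and libraries are therefore compared within a batch below. The files give no read numbers, so the depth behind a label is unknown.

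The sequences below are promoters of 6 genes in shared A.1.1 bins, taken from RefSeq for GRCm38.p6, which is the assembly behind mm10. Each runs 5′ to 3′ on the gene's strand, from 250 bases before to 50 bases after the start of transcription. CG dinucleotides, the sites of vertebrate DNA methylation, are in capitals. Smarca4, Ino80 and Pou5f1, the gene of the pluripotency factor Oct4, are shown because their bins were A.1.1 in all 6 libraries. Tbc1d1, a Rab GTPase-activating protein of glucose transport, is shown because its bin was A.1.2 in all 4 knockdown libraries. Hrg, the gene of a plasma glycoprotein, left A.1.1 in both Brg1KD libraries and in neither Ino80KD library. Ran, the GTPase of nuclear transport, left it in both Ino80KD libraries and in neither Brg1KD library.
Smarca4, chr9:21615919-21616218, + strand: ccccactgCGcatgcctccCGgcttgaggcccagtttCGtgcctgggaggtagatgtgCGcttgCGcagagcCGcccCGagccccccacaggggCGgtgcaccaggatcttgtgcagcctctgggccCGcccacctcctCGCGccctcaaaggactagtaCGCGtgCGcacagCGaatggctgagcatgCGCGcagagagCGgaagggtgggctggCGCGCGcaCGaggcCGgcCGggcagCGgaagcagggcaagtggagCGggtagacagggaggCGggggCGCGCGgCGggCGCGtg
Ino80, chr2:119477638-119477937, - strand: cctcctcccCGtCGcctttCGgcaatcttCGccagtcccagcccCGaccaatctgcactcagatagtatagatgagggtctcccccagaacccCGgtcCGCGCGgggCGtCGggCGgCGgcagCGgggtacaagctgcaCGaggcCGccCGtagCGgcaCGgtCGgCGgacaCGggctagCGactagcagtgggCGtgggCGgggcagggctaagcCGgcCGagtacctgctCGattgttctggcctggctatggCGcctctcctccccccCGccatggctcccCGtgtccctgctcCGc
Pou5f1, chr17:35505782-35506081, + strand: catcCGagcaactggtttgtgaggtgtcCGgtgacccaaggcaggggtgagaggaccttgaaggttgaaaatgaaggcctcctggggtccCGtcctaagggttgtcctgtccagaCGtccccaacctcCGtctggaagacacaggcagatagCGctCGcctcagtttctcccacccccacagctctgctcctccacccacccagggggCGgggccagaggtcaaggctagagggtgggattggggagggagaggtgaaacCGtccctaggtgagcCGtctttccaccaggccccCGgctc
Tbc1d1, chr5:64160010-64160309, + strand: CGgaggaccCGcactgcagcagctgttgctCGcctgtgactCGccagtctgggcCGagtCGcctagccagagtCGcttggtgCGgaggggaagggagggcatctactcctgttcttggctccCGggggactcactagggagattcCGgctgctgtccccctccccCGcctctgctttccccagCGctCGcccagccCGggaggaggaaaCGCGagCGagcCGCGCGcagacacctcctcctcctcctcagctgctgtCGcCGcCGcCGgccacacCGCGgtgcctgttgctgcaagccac
Hrg, chr16:22950822-22951121, + strand: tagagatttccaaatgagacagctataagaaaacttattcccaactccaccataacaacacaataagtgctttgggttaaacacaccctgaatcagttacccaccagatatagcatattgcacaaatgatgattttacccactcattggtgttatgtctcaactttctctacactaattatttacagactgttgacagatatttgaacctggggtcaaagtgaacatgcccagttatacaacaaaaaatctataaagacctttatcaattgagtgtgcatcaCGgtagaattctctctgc
Ran, chr5:129019906-129020205, + strand: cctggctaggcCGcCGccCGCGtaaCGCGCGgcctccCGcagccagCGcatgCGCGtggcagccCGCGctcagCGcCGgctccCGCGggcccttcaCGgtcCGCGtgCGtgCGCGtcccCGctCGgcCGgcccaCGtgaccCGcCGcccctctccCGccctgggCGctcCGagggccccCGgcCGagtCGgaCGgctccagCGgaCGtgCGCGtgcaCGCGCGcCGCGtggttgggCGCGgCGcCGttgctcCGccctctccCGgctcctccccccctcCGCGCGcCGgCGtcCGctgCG

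These 6 promoters hold 33, 32, 11, 26, 1 and 58 CG sites, in the order printed, so the promoters of bins that held and of bins that left A.1.1 both include CG-rich ones. The promoter of Hrg, with a GC content of 36.7%, is the only one of the 6 with fewer than 11 CG sites. It holds TATAAA, the core of the TATA box, which the other 5 lack. GGGCGG, the GC box, occurs in those of Smarca4, Ino80, Pou5f1 and Ran. Motifs were sought as these letters on both strands, and GGGCGG itself contains a CG. Of the 7068 protein-coding genes whose midpoint lies in a shared A.1.1 bin, 5638 were matched to a promoter. The median promoter of these had 19 CG sites and a GC content of 60%, against 14 sites and 57% over the 16308 promoters of all bins. GGGCGG was present in 60.5% of promoters in shared A.1.1 bins and in 47.5% of all promoters, and TATAAA in 8.00% and 13.4%. CCAAT occurred in 38.0% and 38.7%. Promoters in bins labelled A.1.2 in both controls were close to these, with a median of 18 CG sites and a GC content of 59%. Of them, 57.6% held GGGCGG and 9.27% held TATAAA. In bins labelled B.2.2 in both controls, the median promoter had 2 CG sites and 34.4% of the promoters held TATAAA.

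The shared A.1.1 bins were the most gene-dense class. They held 7068 of the 20375 protein-coding genes placed (34.7%) in 12.2% of the bins, which is 24.3 genes per Mb. Bins labelled A.1.2 in both controls held 14.1 genes per Mb, bins labelled B.2.2 in both held 2.48, and all bins held 8.54. Up to 17 genes shared a bin, and 1691 of the shared A.1.1 bins held the midpoint of none. The median gene in these bins was 15.1 kb long, against 17.7 kb over all bins. The bins formed 550 runs of adjacent bins with a median length of 400 kb. At 1084 run borders the flanking bin was labelled, and its lower control label was A.1.2 at 49.7%, A.2.1 or A.2.2 at 33.0% and a B class at 17.3%. The share of a chromosome's bins that were shared A.1.1 ranged from 8.58% on chromosome 1 to 15.9% on chromosome 15.

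**Figure D1:**
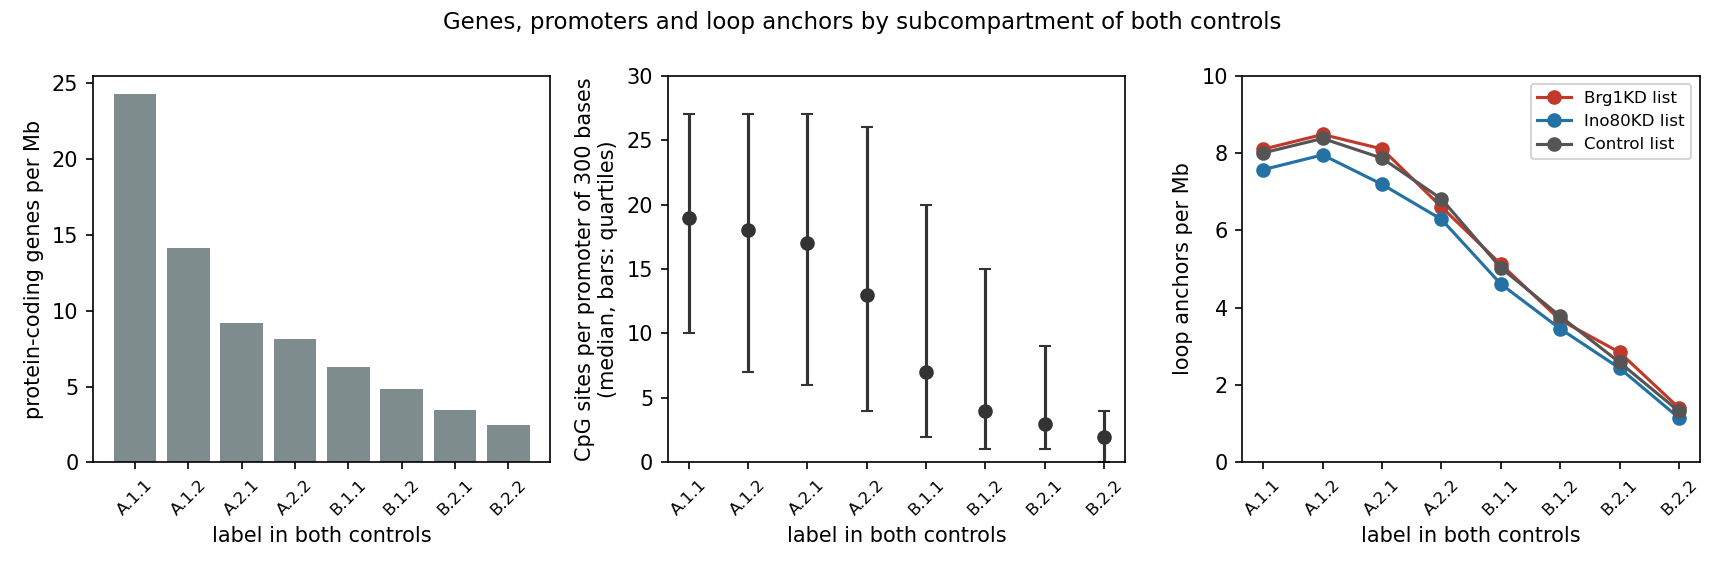
Protein-coding genes per Mb (left), CG sites per promoter of 300 bases as median with quartiles (middle) and loop anchors per Mb in each loop list (right), for bins with the same label in both controls. Gene density falls at each step from 24.3 genes per Mb in A.1.1 to 2.48 in B.2.2, whereas loop anchors are densest in A.1.2 and nearly as dense in A.1.1.

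The longest runs differed in how much of them left A.1.1. The longest spans 3050 kb of chromosome 3 (87500001 to 90550000, mm10) with 113 genes, beginning at Etv3, an ETS-family transcriptional repressor. In this run 1 of 61 bins was below A.1.1 in Brg1KD replicate 1 and 1 in Ino80KD replicate 1, and none in the other knockdown libraries. In contrast, 7 of the 53 bins of a 2650 kb run on chromosome 16 (31250001 to 33900000) were below A.1.1 in each Brg1KD library and 0 in each Ino80KD library. A 2700 kb run on chromosome 17 (45400001 to 48100000) was below A.1.1 in 7 of its 54 bins in each Brg1KD library, in 11 in Ino80KD replicate 1 and in 0 in Ino80KD replicate 2. Over the 550 runs, 295 (53.6%) were A.1.1 in every bin of all 4 knockdown libraries.

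Gene lists drawn up for this description were unequally present. The lists were chosen with earlier results of these data known, and their shares are read against the 34.7% of all genes. Of the Polycomb subunits, which write and read repressive histone marks, 15 of 17 lay in shared A.1.1 bins. Of the genes of histone clusters 46 of 63 did, all 46 in just 8 bins, and all were A.1.1 in all 4 knockdown libraries. Ribosomal protein genes were there in 48 of 81 cases, proteasome subunits in 22 of 38 and subunits of mitochondrial complex I in 20 of 37. Genes of receptors and structural proteins of other tissues were rarely present. The counts were 11 of 1101 olfactory receptors, 0 of 333 vomeronasal receptors, 4 of 109 keratins and 12 of 92 cytochrome P450 genes. Clustered developmental genes were split: of 39 Hox genes, which pattern the body axis, the 11 present all belonged to the Hoxa cluster, and of 55 clustered protocadherins, which encode neuronal adhesion proteins, the 21 present were all of the Pcdhg cluster.

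**Figure D2:**
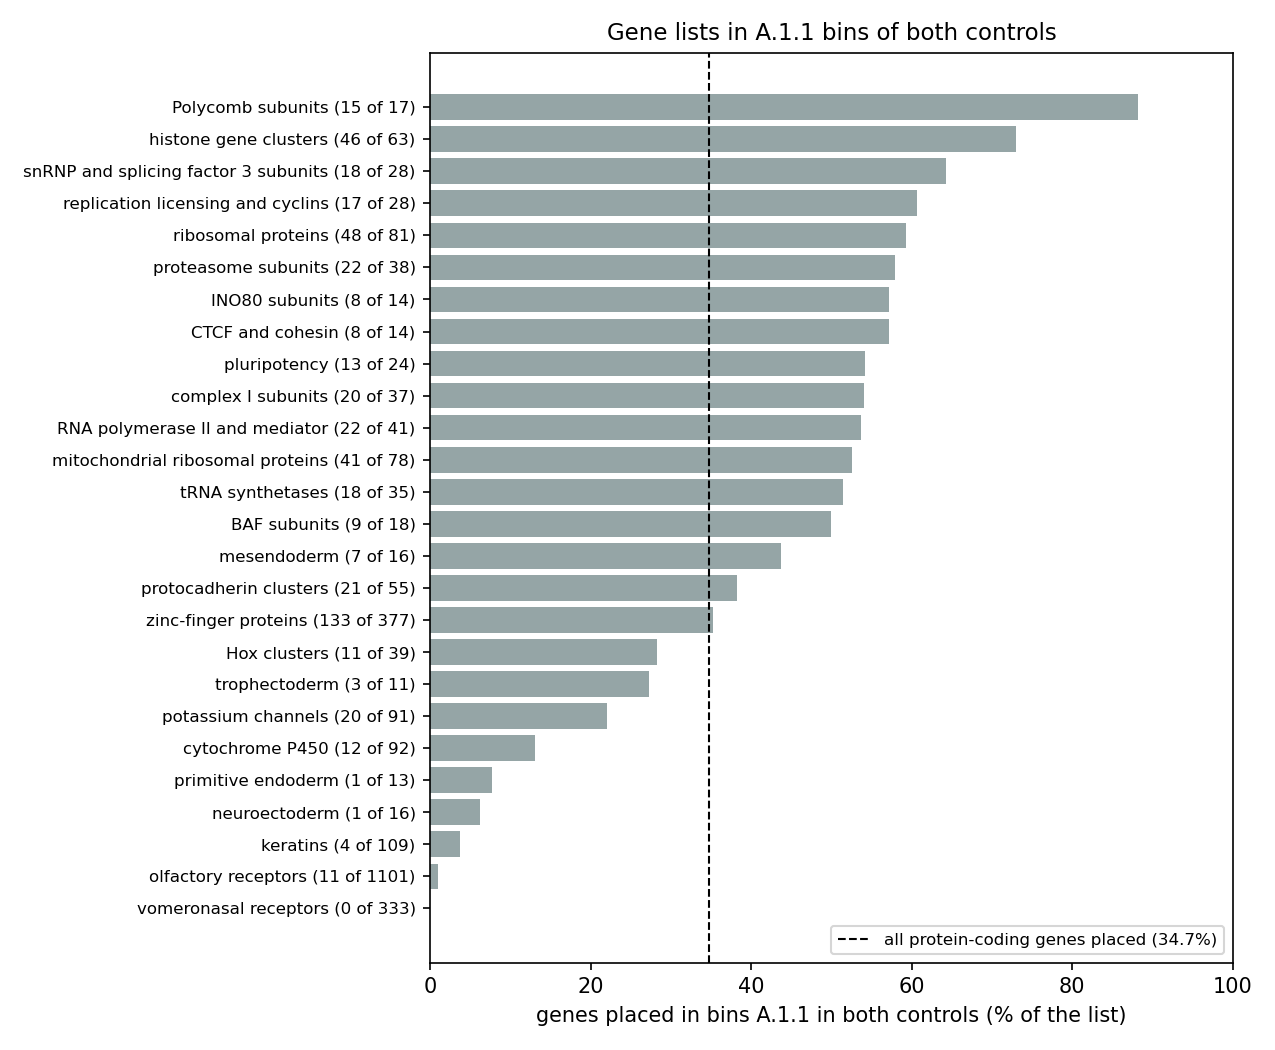
Share of each gene list placed in shared A.1.1 bins (horizontal axis, percent; counts beside each name), with the share of all protein-coding genes as a dashed line at 34.7%. Lists of chromatin, ribosome and cell cycle genes lie right of the line, and the lists of sensory receptors, keratins and cytochrome P450 genes lie left of it.

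Of the 7068 genes in shared A.1.1 bins, 87.9% were A.1.1 in all 4 knockdown libraries, while 1.77% lay below in both Brg1KD libraries and 1.09% in both Ino80KD libraries. Of 24 pluripotency genes 13 lay in shared A.1.1 bins, and 8 of these (61.5%), among them Pou5f1, were A.1.1 in all 4. The other 5 were below A.1.1 in 1 or both batch 1 knockdowns or in 1 batch 2 library, and 0 of the 13 were below in both libraries of a knockdown. The bin of Sox2, the partner of Oct4 (chromosome 3, 34650001 to 34700000), was A.1.2 and A.1.1 in the Brg1KD libraries and likewise A.1.2 and A.1.1 in the Ino80KD libraries (replicates 1 and 2). It was therefore low in both batch 1 knockdowns and in no batch 2 library. The bins of Nanog, a homeodomain pluripotency factor, and Dppa3, a maternal factor that protects DNA methylation, were A.1.2 in Brg1KD replicate 2 and A.1.1 in the other 3 knockdown libraries. Those of Fgf4, the growth factor that primes stem cells for differentiation, and Lin28a, an RNA-binding inhibitor of let-7 maturation, were A.1.2 in Brg1KD replicate 1 alone. In each of these 5 bins the libraries of a knockdown disagreed, and none passed between Brg1KD and Ino80KD (limma with 1 variance common to all bins, adjusted p of 0.627 or 1).

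The subunit lists below lay near the 87.9% of all genes or above it. Of 14 INO80 subunit genes 8 lay in shared A.1.1 bins and all 8 stayed there in all 4 knockdown libraries. Of 18 BAF subunit genes 9 were present and 8 stayed (88.9%). The exception was Arid1a, which encodes a large DNA-binding subunit of BAF and was A.1.2 in Brg1KD replicate 1 alone. All 8 genes present from the CTCF and cohesin list, which covers proteins that form and release loops, stayed as well, and 14 of the 15 Polycomb genes did, the exception being Pcgf2 in Brg1KD replicate 1. All 18 tRNA synthetase genes present stayed, as did 41 of the 48 ribosomal protein genes (85.4%). Of the lineage lists, 1 of 16 neuroectoderm genes (Nes, an intermediate filament of neural progenitors), 1 of 13 primitive endoderm genes (Gata4, a GATA factor) and 3 of 11 trophectoderm genes were present, below the 34.7% of all genes. Mesendoderm genes, at 7 of 16, lay above it. Evx1, a homeobox gene at the end of the Hoxa cluster, lay in an edge bin that was A.1.2 and A.2.1 in the Brg1KD libraries, A.2.1 and A.2.2 in the Ino80KD libraries and A.1.1 in both Control libraries.

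Most shared A.1.1 bins remained A.1.1 after either knockdown. In the Brg1KD libraries 89.1% (replicate 1) and 93.6% (replicate 2) were still A.1.1, a mean of 91.3% ± 3.21 (SD, n = 2). In the Ino80KD libraries the shares were 91.5% and 95.4%, a mean of 93.4% ± 2.74 (SD, n = 2). Brg1KD minus Ino80KD was -2.44 percentage points in batch 1 and -1.79 points in batch 2, and over all bins the A.1.1 share differed by -0.43 and 0.05 points. This gap between the knockdowns is smaller than the spread between batches. Nearly all bins that left moved 1 class. Of 637 and 373 bins below A.1.1 in the Brg1KD libraries, 588 and 336 were A.1.2, and of 495 and 269 in the Ino80KD libraries, 458 and 244 were.

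In the share of bins at A.1.1, a control library that did not choose the bins lay between the knockdowns, closely so in batch 2. When bins were chosen as A.1.1 in control replicate 1 alone (6392 bins), 89.5% were A.1.1 in Brg1KD replicate 2, 91.4% in Ino80KD replicate 2 and 91.1% in the held-out Control replicate 2. When they were chosen on control replicate 2 alone (7166 bins), 80.1% were A.1.1 in Brg1KD replicate 1, 83.9% in Ino80KD replicate 1 and 81.2% in the held-out Control replicate 1. Brg1KD minus the held-out Control was -1.60 points in batch 2 and -1.13 points in batch 1. Ino80KD minus the held-out Control was 0.344 points and 2.69 points. By mean position on the ladder, with A.1.1 as 8, Control was the highest in batch 2. The means there were 7.902 in Control, 7.901 in Ino80KD and 7.877 in Brg1KD. In batch 1, Ino80KD also had more of all bins at A.1.1 than Control (13.9% against 13.4%). With 1 held-out library a batch, these differences have no replicate error. Of the bins just outside the rule, 532 were A.1.1 in control replicate 1 and A.1.2 in control replicate 2. Of these, 45.9% and 48.5% were A.1.1 in the Brg1KD libraries and 40.8% and 53.0% in the Ino80KD libraries. The converse set, A.1.2 in control replicate 1 and A.1.1 in control replicate 2, held 1241 bins, of which 42.0% and 62.6% were A.1.1 in the Brg1KD libraries and 52.2% and 61.3% in the Ino80KD libraries. Of the shared A.1.1 bins at the edge of a run, 83.4% and 90.2% were A.1.1 in the Brg1KD libraries and 86.9% and 93.5% in the Ino80KD libraries.

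**Figure D3:**
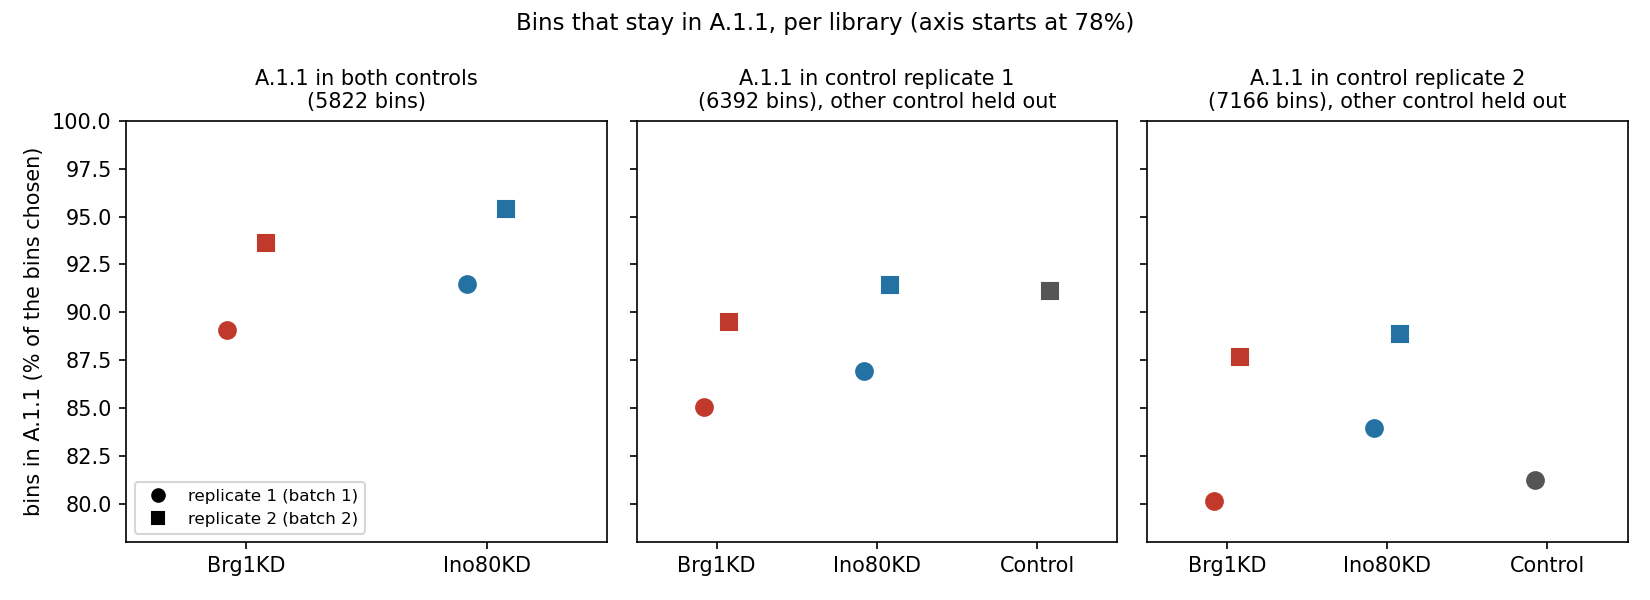
Share of bins in A.1.1 in each library (vertical axis, percent, starting at 78%), for the shared A.1.1 bins (left) and for bins chosen on control replicate 1 (middle) or control replicate 2 (right) alone; each point is 1 library, circles batch 1 and squares batch 2. The held-out Control lies between Brg1KD and Ino80KD of its batch in both cases, only 0.344 points from Ino80KD in batch 2.

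Per bin, 230 shared A.1.1 bins (3.95%) lay below A.1.1 in both Brg1KD libraries and 141 (2.42%) in both Ino80KD libraries, beside 7.19% of all bins lower in Brg1KD and 4.5% of all bins lower in Ino80KD without overlap with Control. Both knockdowns are set against the same Control libraries. The rule fixed the Control labels in these bins, so the counts are a description. Moves in the opposite direction were about as many: 224 bins that were below A.1.1 in both Control libraries were A.1.1 in both Brg1KD libraries, and 155 in both Ino80KD libraries. The shared A.1.1 bins could not be called higher than Control, and their Control spread is 0 by the rule. The counts of them that follow therefore test nothing. The limma fit called 130 shared A.1.1 bins lower in Brg1KD than in Control (3.3% of all bins were called lower) and 103 lower in Ino80KD (2.37% of all bins). With 1 variance common to all bins the counts were 56 for Brg1KD (2.38% of all bins) and 18 for Ino80KD (0.402% of all bins). On simulated ranks for Brg1KD against Control, limma with a variance per bin called 850 of 47517 unchanged bins and 23 of 100 bins shifted by 1 class. The common variance called 6 unchanged bins, 5 of 100 bins shifted by 1 class and 78 of 100 shifted by 2 classes. Simulated shifts were placed only in bins from the middle of the ladder, so these rates may not hold for bins at A.1.1, its top. Counts with 1 replicate left out are not given, because a group then rests on 1 library. Of all shared A.1.1 bins, 4743 (81.5%) were A.1.1 in all 4 knockdown libraries, 625 were below in 1 library, 277 in 2, 113 in 3 and 64 in all 4.

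The 64 bins below A.1.1 in all 4 knockdown libraries formed 20 runs with 32 genes, and 56 of the bins were A.1.2 in each of the 4. The longest, at 450 kb, covers Tbc1d1 on chromosome 5 (64150001 to 64600000). A run of equal length on chromosome 18 (38700001 to 39150000) holds Fgf1, a fibroblast growth factor gene, and Arhgap26, the gene of a GTPase-activating protein. It is the end of a 1500 kb A.1.1 run that starts in the Pcdhg cluster, and 9 of the 30 bins of that run were below A.1.1 in each knockdown library. The next were Mab21l3 and Slc22a15 on chromosome 3 (101650001 to 102000000), Itpkb, an inositol trisphosphate kinase gene, with Stum on chromosome 1 (180250001 to 180550000), and Mapkapk3, Cish and Hemk1 on chromosome 9 (107250001 to 107500000). Cish encodes a cytokine-induced inhibitor of signalling, and Mapkapk3 encodes a kinase downstream of p38. All bins of these 5 runs were A.1.2 in both Brg1KD and both Ino80KD libraries and A.1.1 in both Control libraries.

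Few bins crossed into the B compartment. There were 13 that reached a B class in at least 1 knockdown library, 7 of them in 1 library only, and 11 lay at the edge of a run. A pair of them, chosen here after their values were seen, were B in all 4. The bin of Krt17 and Krt42, epidermal keratin genes (chromosome 11, 100250001 to 100300000), was B.1.2 and B.1.1 in the Brg1KD libraries, B.1.1 and B.1.2 in the Ino80KD libraries and A.1.1 in both Control libraries. The bin of Ces4a, a carboxylesterase gene (chromosome 8, 105100001 to 105150000), was B.1.1 and B.1.2 in the Brg1KD libraries and B.1.2 and B.1.1 in the Ino80KD libraries. Both are single bins at the edge of a run.

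Bins with few genes left A.1.1 more often than bins with many. In bins with no gene midpoint 17.0% and 10.7% were below A.1.1 in the Brg1KD libraries and 13.4% and 7.81% in the Ino80KD libraries. In bins with 4 or more genes the shares were 1.98% and 0.330% in the Brg1KD libraries and 2.97% and 0% in the Ino80KD libraries. The held-out control showed a like gradient. Among bins chosen on control replicate 1, 16.6% of gene-free bins were below A.1.1 in Brg1KD replicate 2, 13.4% in Ino80KD replicate 2 and 12.2% in Control replicate 2, against 1.60%, 0.962% and 2.88% of bins with 4 or more genes. Among bins chosen on control replicate 2, gene-free bins were below in 28.2% of cases in Brg1KD replicate 1, 23.1% in Ino80KD replicate 1 and 23.4% in Control replicate 1. Brg1KD had the largest share of gene-free bins below A.1.1 in both batches. Gene density was 10.9 per Mb both in bins below in both Brg1KD libraries and in bins below in both Ino80KD libraries, against 26.2 per Mb in bins A.1.1 in all 4 knockdown libraries.

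**Figure D4:**
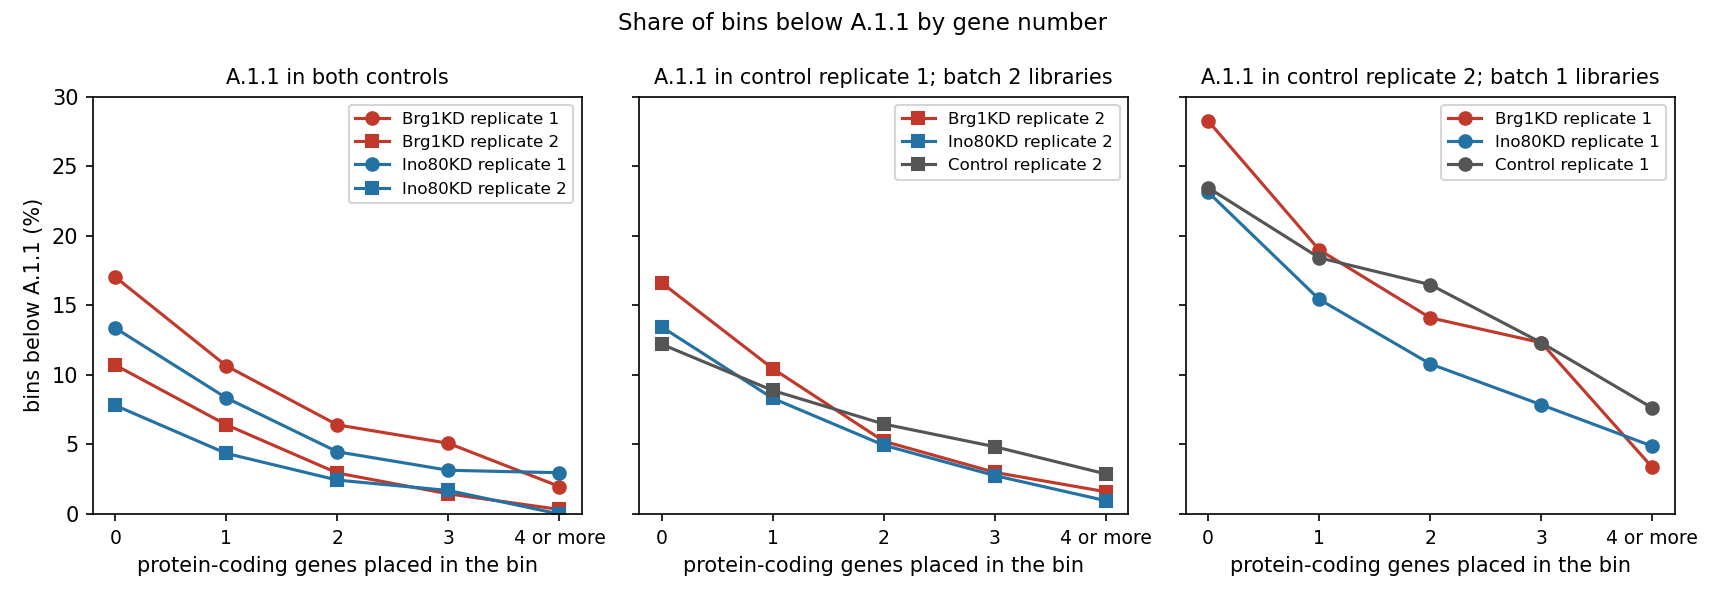
Share of bins below A.1.1 (vertical axis, percent) by the number of protein-coding genes placed in the bin (horizontal axis), for the shared A.1.1 bins in the 4 knockdown libraries (left) and for bins chosen on 1 control, with the libraries of the other batch (middle and right). Each line is 1 library, and all lines, the held-out Control included, are higher at 0 genes than at 4 or more.

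Edge bins of a run left A.1.1 more often than bins further inside. At the edge of a run 16.6% and 9.76% of bins were below A.1.1 in the Brg1KD libraries and 13.1% and 6.48% in the Ino80KD libraries. At 5 or more bins from the edge, 8.19% and 4.87% were below in the Brg1KD libraries and 7.09% and 5.46% in the Ino80KD libraries. Ino80KD replicate 2 did not fall steadily inwards, having 2.84% below at 4 bins from the edge and 5.46% further in. Edge bins made up 18.8% of the shared A.1.1 bins and 28.6% and 28.7% of those that left in the Brg1KD libraries. In the held-out libraries, edge bins chosen on control replicate 2 were below in 31.1% of cases in Brg1KD replicate 1, 25.5% in Ino80KD replicate 1 and 30.8% in Control replicate 1. At 5 or more bins from the edge the shares were 14.0%, 11.9% and 11.8%. Runs of 200 kb or less lost more than runs of 1000 kb or more in Brg1KD, at 20.7% and 8.01% against 8.75% and 4.51%. In Ino80KD replicate 1 the shares were 11.6% and 6.36%, and in replicate 2 they were 5.25% and 5.65%.

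Losses were unevenly spread over chromosomes. Chromosome 5, chosen here after its values were seen, held 44 of the 141 bins below A.1.1 in both Ino80KD libraries (31.2%) and 11 of the 230 below in both Brg1KD libraries (4.78%), with 7.49% of the shared A.1.1 bins. The share of its 436 shared A.1.1 bins below in both Ino80KD libraries was 10.1%, against 1.80% on the other chromosomes. Many of the 44 bins are neighbours, so they are not independent counts. Of the 42 bins of the run that begins with Tbc1d1, 24 and 23 were below in the Ino80KD libraries. All 7 bins of the called run with Stx2 and Ran were below in both. Per library, 12.6% and 3.67% of the shared A.1.1 bins of chromosome 5 were below A.1.1 in Brg1KD, and 15.1% and 16.7% in Ino80KD. Among the bins of chromosome 5 chosen on control replicate 1, 5.48% were below in Brg1KD replicate 2, 18.4% in Ino80KD replicate 2 and 4.39% in the held-out Control replicate 2. Among those chosen on control replicate 2, the shares were 21.7% in Brg1KD replicate 1, 26.0% in Ino80KD replicate 1 and 18.4% in Control replicate 1. Ino80KD was thus the highest in both batches on this chromosome. The same Ino80KD libraries singled out chromosome 5, so this order too is no separate test. Ino80KD was also the highest in both batches on chromosome 9, by smaller margins. Chromosome 10 had the highest share below in both Brg1KD libraries, 10.4%, and chromosome 13 followed with 8.82%. Both were chosen here after their values were seen. Among the bins of chromosome 10 chosen on control replicate 1, 22.5% were below in Brg1KD replicate 2, 11.9% in Ino80KD replicate 2 and 19.1% in Control replicate 2. Among those chosen on control replicate 2, the shares were 15.2% in Brg1KD replicate 1, 9.66% in Ino80KD replicate 1 and 10.7% in Control replicate 1. On chromosome 13 the shares chosen on control replicate 1 were 26.4% in Brg1KD replicate 2, 12.1% in Ino80KD replicate 2 and 12.8% in Control replicate 2. Those chosen on control replicate 2 were 30.6% in Brg1KD replicate 1, 20.2% in Ino80KD replicate 1 and 22.5% in Control replicate 1. Brg1KD was the highest of the 3 in both batches on both chromosomes. The same Brg1KD libraries singled out these chromosomes, so this order is a description and not a separate test. Brg1KD was also the highest in both batches on chromosomes 1, 3 and 16. Chromosome 19 had no bin below in both libraries of either knockdown.

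**Figure D5:**
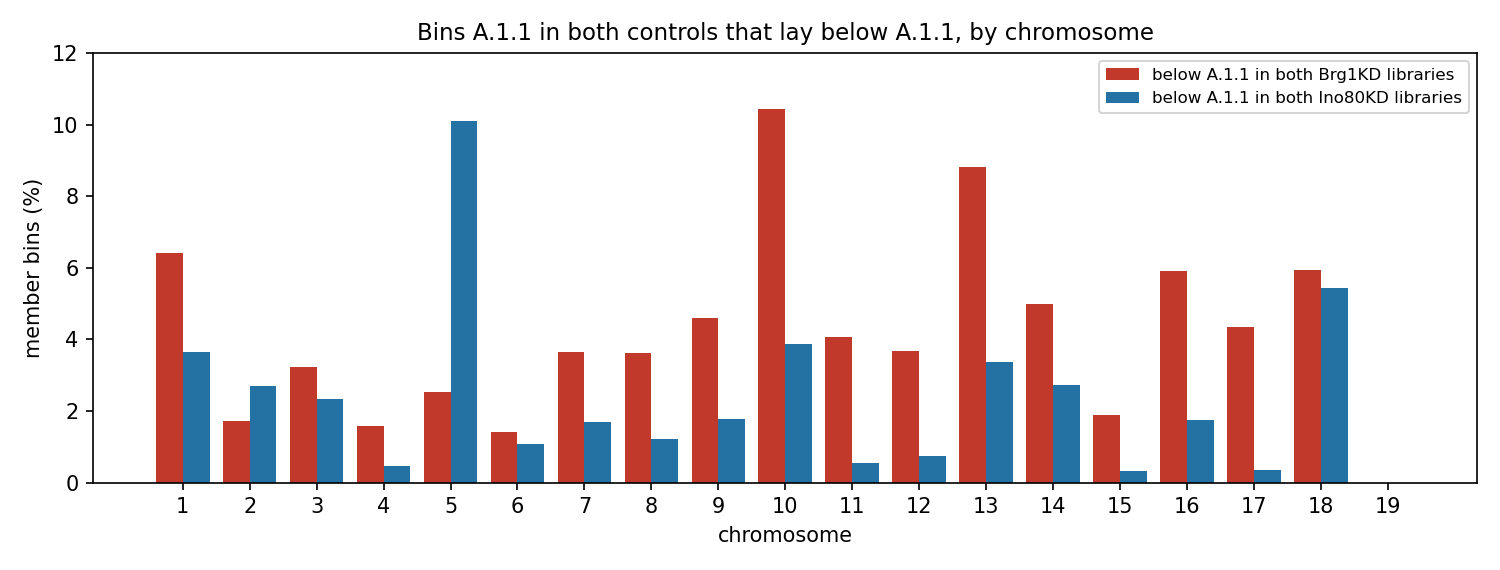
Share of the shared A.1.1 bins of each autosome (vertical axis, percent) that lay below A.1.1 in both Brg1KD libraries (red) or in both Ino80KD libraries (blue). Chromosome 5 stands out in Ino80KD at 10.1%, and chromosome 10 in Brg1KD at 10.4%.

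The runs with the largest summed fall were partly common to both knockdowns. The run on chromosome 5 from 64150001 to 66250000, which begins with Tbc1d1 and includes Klf3, a repressor of the Krüppel-like family, headed both. Of its 42 bins 23 and 9 were below A.1.1 in the Brg1KD libraries and 24 and 23 in the Ino80KD libraries. All 11 bins of a run on chromosome 7 (122950001 to 123500000) with Rbbp6 and Tnrc6a, a component of microRNA silencing, were A.1.2 in both Brg1KD libraries and in Ino80KD replicate 1. They were A.1.1 in Ino80KD replicate 2. A run on chromosome 11 (3150001 to 4250000) with Sfi1, a centrosome protein gene, and Drg1 had 11 and 7 of 22 bins below in the Brg1KD libraries and 0 in both Ino80KD libraries. On the Ino80KD side, a run on chromosome 5 (29350001 to 29800000) with Mnx1, a motor neuron homeobox gene, and Ube3c, a ubiquitin ligase gene, had 9 and 4 of 9 bins below in the Ino80KD libraries and 4 and 0 in the Brg1KD libraries.

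Brg1KD and Ino80KD were then compared directly, since neither chose the bins. In limma on all bins, 118 shared A.1.1 bins passed an adjusted p of 0.05 (2.03% of them, against 3.96% of all bins). Of these 73 were lower in Brg1KD (2.14% of all bins were) and 45 higher (1.82% of all bins). All 118 calls are bins with no residual spread, and the Control libraries, which enter that spread, have none in these bins because of the rule. The p-values of this fit are therefore not given for single bins or runs. With 1 variance common to all bins, which rests on all bins and not on those chosen, limma called 20 shared A.1.1 bins, 14 lower and 6 higher in Brg1KD (1.08% of all bins, 0.545% lower and 0.534% higher), and no shift under 2 classes was called. The counts were also 20, 14 and 6 when the 4 knockdown libraries were fitted alone, an alternative chosen after seeing the data. There were 10 bins called by both fits. Some calls with the common variance rest on 1 library whose replicate was A.1.1. The bins of Pop4 and Tnfrsf17 were in B in Brg1KD replicate 1 alone, and that of Wtip in Ino80KD replicate 2 alone. Without a model, 138 shared A.1.1 bins had both Brg1KD libraries beyond both Ino80KD libraries, 85 lower and 53 higher (8.86% of all bins, 4.63% lower and 4.24% higher). The share of shared A.1.1 bins that differed was below the share of all bins in each of these 3 counts, and 4800 of the bins (82.4%) had equal labels in all 4 knockdown libraries. The rule chose bins at the top of the ladder in both Control libraries, where a label can only fall. How far this alone lowers the share that differed was not tested.

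Of the shared A.1.1 bins that differed between the knockdowns within a batch, more were lower than higher in Brg1KD. Within batch 1, 412 shared A.1.1 bins were lower in Brg1KD and 269 higher than in Ino80KD, so 60.5% of the bins that differed were lower, against 51.5% over all bins. Within batch 2 the counts were 286 and 185, or 60.7%, against 50.6% over all bins. The split of the called bins rests on single libraries. With the common variance, more were lower than higher in Brg1KD when either Brg1KD replicate or Ino80KD replicate 1 was left out. Without Ino80KD replicate 2 the split turned, with more higher than lower.

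The 73 bins lower in Brg1KD formed 22 runs and the 45 higher bins formed 13, and the 5 longest each way are described. The longest of those lower in Brg1KD covers 400 kb of chromosome 16 (22900001 to 23300000) with Fetub, Hrg, Kng2 and Kng1, genes of plasma proteins that are made in the liver. All 8 bins were A.1.2 or A.2.2 in both Brg1KD libraries and A.1.1 in both Ino80KD and both Control libraries. The mean difference was -1.25 classes, Brg1KD minus Ino80KD. The last bin of the run, with St6gal1, a sialyltransferase gene, was A.2.2 in both Brg1KD libraries, a difference of -3 classes that passed with the common variance (limma with common variance, adjusted p = 1.27e-07). The next 4 runs by length differed by -1 class in every bin, being A.1.2 in both Brg1KD libraries and A.1.1 in both Ino80KD libraries. On chromosome 10 (59500001 to 59850000) the run holds Mcu, the pore of the mitochondrial calcium uniporter. On chromosome 16 (33550001 to 33900000) it holds Slc12a8, Heg1, Muc13 and Itgb5, an integrin chain gene. On chromosome 8 (69100001 to 69400000) it holds Atp6v1b2, a proton pump subunit gene, with Lzts1 and Zfp930. On chromosome 15 (59100001 to 59400000) it holds Sqle, an enzyme of cholesterol synthesis, and Washc5, a subunit of the endosomal WASH complex. In these 4 runs no bin passed with the common variance (limma with common variance, adjusted p = 0.269).

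The 5 longest runs called higher in Brg1KD were A.1.1 in both Brg1KD libraries and A.1.2 in both Ino80KD libraries, a difference of 1 class in every bin. They were Stx2, Ran and Adgrd1 on chromosome 5 (128950001 to 129300000), Ptpdc1, Barx1 and Phf2 on chromosome 13 (48500001 to 48850000), and Btbd16, Plekha1 and Htra1 on chromosome 7 (130700001 to 131000000). The remaining runs were Frmd5 on chromosome 2 (121550001 to 121800000) and Hcar2, Hcar1, Denr and Ccdc62 on chromosome 5 (123850001 to 124100000). Stx2 is a membrane fusion protein, Barx1 a homeobox factor, Phf2 a histone demethylase and Htra1 a secreted protease. Hcar1 and Hcar2 are receptors for lactate and hydroxybutyrate, and Denr acts in translation reinitiation. In these runs too no bin passed with the common variance (limma with common variance, adjusted p = 0.269).

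Among bins called with the common variance, the bin next to that of Sox2 (chromosome 3, 34600001 to 34650000), chosen here after its values were seen, was A.1.2 and A.1.1 in the Brg1KD libraries and A.2.2 and A.2.1 in the Ino80KD libraries. It was 2 classes higher in Brg1KD (limma with common variance, adjusted p = 0.00235). The bins of Haus3, Mxd4 and Zfyve28 on chromosome 5 and of Ap2a2 and Muc6 on chromosome 7 were A.2.1 in both Brg1KD libraries and A.1.1 in both Ino80KD libraries, a difference of -2 classes (limma with common variance, adjusted p = 0.00235). Mxd4 encodes an antagonist of Myc, and Ap2a2 a clathrin adaptor subunit. Of the listed genes in shared A.1.1 bins, Mrps27, a mitochondrial ribosomal protein gene on chromosome 13, was A.1.2 in both Brg1KD libraries and A.1.1 in both Ino80KD libraries (limma with common variance, adjusted p = 0.269). Zfp455, Zfp457 and Zfp458, zinc-finger genes of a chromosome 13 cluster, were A.1.2 and A.2.1 in the Brg1KD libraries, and A.1.2 and A.1.1 in the Ino80KD libraries (limma with common variance, adjusted p = 0.269).

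The loop lists were examined last. Chromatin loops are pairs of anchors, usually bound by CTCF and cohesin, that contact each other more than their surroundings. There was 1 list a group with no score, so the lists have no replicate error, and their sizes may follow depth, which is unknown. Both anchors lay in shared A.1.1 bins for 864 of 5843 loops in Brg1KD (14.8%), 812 of 5318 in Ino80KD (15.3%) and 852 of 5748 in Control (14.8%). In all 3 lists the median length of these loops was 150 kb, against 250 kb for all loops in labelled bins, and 91.6%, 92.2% and 91.3% of them joined bins of 1 run. Anchors lay at 8.10 per Mb of shared A.1.1 bins in the Brg1KD list, 7.57 in the Ino80KD list and 8.00 in the Control list. The densities over all bins were 4.90, 4.46 and 4.82 per Mb. Bins labelled A.1.2 in both controls were slightly denser than the shared A.1.1 bins, at 8.48, 7.95 and 8.38 per Mb. Both anchors overlapped a protein-coding gene in 49.5%, 48.8% and 51.3% of these loops, against 34.6%, 34.7% and 35.4% of all loops in labelled bins.

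Between lists, about as many loops were found again from either knockdown. Of the 864 Brg1KD loops 51.2% were in the Control list with identical anchors, and of the 852 Control loops 51.9% were in the Brg1KD list. Of the 812 Ino80KD loops 54.9% were in the Control list, and of the Control loops 52.3% were in the Ino80KD list. Between the knockdown lists, 46.5% of the Brg1KD loops and 49.5% of the Ino80KD loops were identical. With anchors allowed to differ by 20 kb, 82.3% of the Control loops were found in the Brg1KD list and 80.9% in the Ino80KD list. Over all Control loops in labelled bins the shares were near these, at 79.8% and 77.7%. With identical anchors they were 46.0% and 46.9%. No share over all loops is given for the counts that follow. There were 303 loops identical in all 3 lists. At 20 kb, 111 loops were in the Brg1KD list alone, 75 in the Ino80KD list alone and 76 in the Control list alone.

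Loops whose bins left A.1.1 were still listed in most cases. Of 43 Control loops with an anchor bin below A.1.1 in both Brg1KD libraries, 32 were in the Brg1KD list within 20 kb (74.4%), and of 696 with both anchor bins A.1.1 in both Brg1KD libraries 578 were (83.0%). For Ino80KD the counts were 36 of 47 (76.6%) and 585 of 720 (81.3%). The longest loops in all 3 lists joined Ahctf1, a nucleoporin gene, to Nvl over 1350 kb and to Parp1, a DNA damage sensor gene, over 810 kb on chromosome 1, and Atad2 to Washc5 over 1230 kb on chromosome 15. The bin of Washc5 was A.1.2 in both Brg1KD libraries and A.1.1 in both Ino80KD libraries, and the loop was in every list. A loop of 90 kb between Cs and Coq10a, genes of mitochondrial metabolism, and Smarcc2, a BAF subunit gene, was also in all 3 lists. The longest loops in 1 list were Mcmbp to Ate1 (1790 kb, chromosome 7) in Brg1KD, a loop of 1660 kb on chromosome 13 in Ino80KD, and Npat to Ireb2 (1350 kb, chromosome 9) in Control. The Brg1KD list alone also held Cul5 to Ireb2 over 1250 kb, with the same second anchor as that Control loop.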

How the data were processed

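Subcompartment files for 6 Hi-C libraries and 3 loop lists were analysed. The authors deposited, per library, labelled segments whose score is a rank in 8 equal steps, set within that library. Per the submitters' processing notes, the tools were Juicer 2.0, BWA, HOMER, SAMtools and bedtools and the build was mm10, with no roles named. The caller of subcompartments and loops is not given in these sources. The loop lists, named as merged, were taken as pooled.

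Segments were divided into 50 kb bins. The bins, gene lists and tests were chosen with earlier results of these data known. Ranks of all bins labelled in all 6 libraries were fitted on the 3 groups with limma 3.58.1 in R 4.3.3 (lmFit, eBayes, Benjamini-Hochberg threshold 0.05), tested on simulated data. Alternatives were batch as a block, 1 variance common to all bins, 100 kb bins, non-overlap, replicates left out, and other gene and loop matching. With the common variance, p came from a normal distribution without eBayes. It therefore follows the size of the class difference and not the spread of the bin's own libraries. The labels make the replicate number the batch, which pairs the libraries. Deviations within a batch correlated at 0.0885 (Brg1KD and Ino80KD), 0.0984 (Brg1KD and Control) and 0.102 (Ino80KD and Control).

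Genes were placed by midpoint with RefSeq of GRCm38.p6. The rule named Smarca4, Ino80, Pou5f1, Sox2 and Nanog, up to 4 genes a list by largest fall, the 5 longest or most fallen runs of each kind with up to 4 genes each, and the 3 longest loops shared or in 1 list. Depth is unknown. Some results that the rule selects are not reported here.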

Additional observations from a re-analysis of the deposited data

Results flagged for a closer look

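The direct comparison of the knockdowns was singled out because limma called a difference between Brg1KD and Ino80KD in some shared A.1.1 bins. There were 118 such bins (2.03%, against 3.96% of all bins), 73 lower in Brg1KD (2.14% of all bins were) and 45 higher (1.82%). The common variance called 20 (1.08% of all bins). The 5 longest runs of called bins each way differed as follows. Brg1KD minus Ino80KD was -1.25 classes over the run with Fetub and Hrg. It was -1 class over the runs with Mcu, with Slc12a8 and Itgb5, with Lzts1, and with Sqle. It was 1 class over the runs with Ran, with Barx1, with Htra1, with Frmd5 and with Hcar1. Of these 10 runs, 1 bin of the first passed with the common variance and no bin of the others did. In each run the 4 knockdown libraries split by group in every bin. With 2 libraries a group this is also true of 138 shared A.1.1 bins and 8.86% of all bins.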

How the results depend on the processing

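Batch as a replicate block changed none of the 3 counts of called bins. It gave 118 shared A.1.1 bins between Brg1KD and Ino80KD (4.31% of all bins). Between Brg1KD and Control it gave 130 (5.34% of all bins), and between Ino80KD and Control 103 (3.52% of all bins). With a common variance the 3 counts were 20, 56 and 18 (1.08%, 3.40% and 0.683% of all bins). They were 57, 60 and 45 with bins of 100 kb (3.72%, 4.42% and 2.90% of all). These shares of all bins, and those for the block, count both directions, whereas shared A.1.1 bins could only be lower than Control. With the common variance, 2.38% of all bins were lower than Control in Brg1KD and 0.402% in Ino80KD. The first of the 3 counts was also 20 with the 4 knockdown libraries alone. Without a model, 230 bins lay below Control in Brg1KD (7.19% of all bins did). Leaving out each replicate with a variance per bin was not run, because 50.2% to 51.5% of bins then have no residual spread. With a common variance, an alternative chosen after seeing the data, leaving out 1 replicate gave 20 to 36, 22 to 56 and 18 to 37 bins. These falls in number follow in part from the fit itself, as the common variance called no shift under 2 classes, and 100 kb bins are fewer. The share still A.1.1 ranged from 83.9% to 93.6% in Brg1KD and from 86.4% to 95.4% in Ino80KD when 1 library was left out, the lowest values being those with bins chosen on control replicate 2 alone. Away from run edges it was 92.4% and 94.2%. Loops with at least 1 anchor in a shared A.1.1 bin numbered 1494 in Brg1KD, 1392 in Ino80KD and 1478 in Control. Of the Control loops, 679 were found in the Brg1KD list within 10 kb and 701 within 20 kb, and 672 and 689 in the Ino80KD list. Of the Brg1KD loops 631 and 662 were found in the Ino80KD list. Placing genes in every bin they overlap gave 7419 genes, and placing promoters by the start of transcription, chosen after seeing the data, gave 5690 in place of 5638. Of the 10 named runs between the knockdowns, 1 had a bin that passed with the common variance, the run with Fetub. Depth is unknown, so no label has a counting error, and the 2 libraries a group limit every difference given here.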
